A study of Gallus gallus with 5 samples.

Results

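All peaks on chicken chromosome 5 were taken from the 5 deposited peak lists by the chromosome column, which gave 24087 of 425322 peaks. The chromosome was chosen as the densest macrochromosome in these lists, so its excess over chromosomes 1 to 4 restates that choice and is given as a description. They were 5819 of 103231 peaks for H3R2me2s replicate 1, 6889 of 120536 for H3R2me2s replicate 2, 4286 of 77936 for H4R3me2a replicate 1, 6551 of 113426 for H4R3me2a replicate 2 and 542 of 10193 for the input. The lists come from chromatin immunoprecipitation with sequencing (ChIP-seq) on chicken erythrocyte nuclei at an immature, polychromatic stage (labelled G0), after fixation in 0.5% formaldehyde. H3R2me2s was precipitated with a Millipore antibody and H4R3me2a with an Active motif antibody, with 2 libraries each, and 1 library of input chromatin had no antibody. Both replicate 1 libraries were read on SOLiD, and the other 3 libraries on Illumina. All groups share the cell type and fixation, no treatment or age is given, and the breed is Lohmann in one field of the labels and Bovan in another. Whether the replicates came from separate or pooled animals is not given. No expression values were used here, so the cell type rests on the labels.

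H3R2me2s is the symmetric dimethylation of arginine 2 on the tail of histone H3, a kind of methylation laid down by enzymes such as PRMT5, and it is known from active promoters. H4R3me2a is the asymmetric dimethylation of arginine 3 on histone H4, laid down by PRMT1, and it is known from active erythroid chromatin, the beta-globin domain among it. Chicken erythrocytes keep their nucleus, and most of it condenses as the cells mature. Macrochromosomes, the large chromosomes of birds, carry fewer genes for their length than the small microchromosomes.

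Tags left after filtering ranged from 10.3 to 14.2 M in the replicate 1 libraries and from 27.1 to 35.1 M in the Illumina libraries. Platform, caller, control and depth all change with replicate number, as does a size selection of 100 to 250 bp that the labels give for the SOLiD libraries, and these cannot be told apart, and densities are read within a list. The run names in the headers match the labels, but the alignment file names in the headers of the 3 Illumina lists do not, and that of H4R3me2a replicate 1 is spelled with H3. Each value therefore rests on the labels. The spanned length of a chromosome is the highest peak end in any list, which is 62237773 bp for chromosome 5, or 6.03% of all spanned bases. No chance placement of peaks was made, and 1 chromosome against others allows no test beyond that over libraries.

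The density by which chromosome 5 was chosen was above that of each of chromosomes 1 to 4 in all 4 ChIP lists. H3R2me2s had 93.5 peaks per Mb on chromosome 5 in replicate 1, and 57.1 to 73.9 on chromosomes 1 to 4. In replicate 2 the H3R2me2s density was 110.7 per Mb, and 92.5 to 105.2 on chromosomes 1 to 4. H4R3me2a had 68.9 peaks per Mb in replicate 1 and 105.3 in replicate 2, where chromosomes 1 to 4 had 40.96 to 53.7 and 86.4 to 97.7. The input went another way, with 8.71 peaks per Mb on chromosome 5, fewer than on chromosome 1 (12.1) or 2 (9.49) and more than on chromosome 3 (8.13) or 4 (7.32). Chromosome 6, the next in number, was denser than chromosome 5 in every ChIP list, with H3R2me2s densities of 110.3 and 125.3 per Mb and H4R3me2a densities of 79.9 and 121.3.

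**Figure D1:**
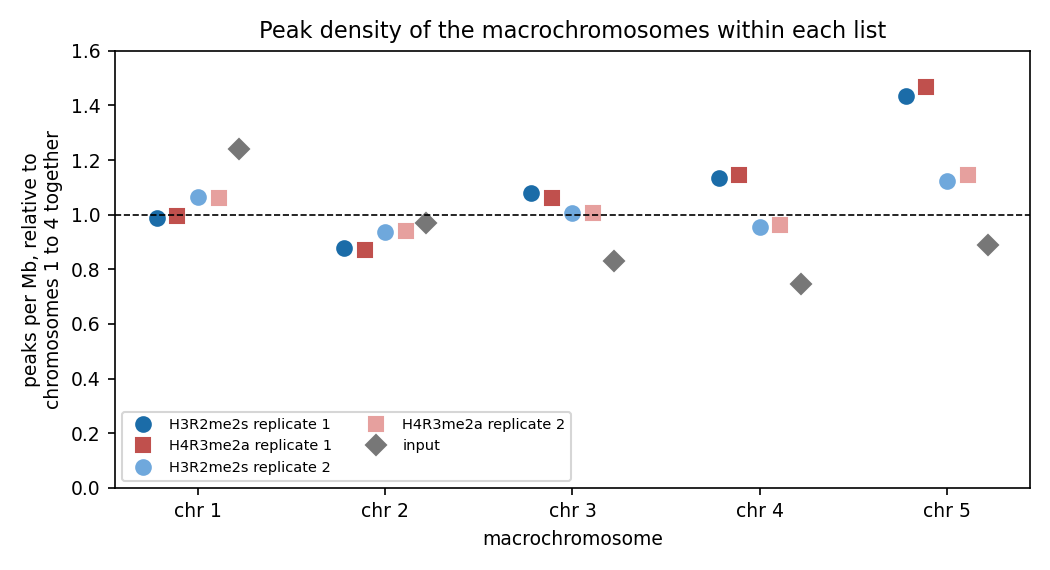
Peaks per Mb of macrochromosomes 1 to 5, divided by the density of chromosomes 1 to 4 together in the same list (dashed line at 1), with 1 point per list. On chromosome 5 the replicate 1 points stand at 1.43 and 1.47, the replicate 2 points at 1.12 and 1.14 and the input at 0.889.

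Relative to chromosomes 1 to 4 together, the density on chromosome 5 was 1.43 times for H3R2me2s replicate 1, 1.12 for H3R2me2s replicate 2, 1.47 for H4R3me2a replicate 1, 1.14 for H4R3me2a replicate 2 and 0.889 for the input. The mean was 1.28 ± 0.221 (SD, n = 2) for H3R2me2s and 1.31 ± 0.229 (SD, n = 2) for H4R3me2a. Each of these SDs is a difference between 2 replicates that also differ in platform, caller, control and depth. The H4R3me2a ratio was higher than the H3R2me2s ratio by 0.0321 in replicate 1 and 0.0219 in replicate 2. The difference was 0.0270 on average, and a 2-sided exact permutation test over the 4 libraries gave p = 0.667. The smallest p this design allows is 0.333, so the test says nothing on whether the marks differ. In covered bases chromosome 5 was also above each of chromosomes 1 to 4: the cover was 8.47 and 8.41% for H3R2me2s, replicate 1 first, while for H4R3me2a it came to 7.03 and 5.89%. Input peaks covered 0.192% of chromosome 5 and 0.193% of chromosomes 1 to 4, so by cover the input was level.

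The ratio of chromosome 5 to chromosomes 1 to 4 was lower without the chromosome ends, in the ChIP lists and in the input. With the first and last 5 Mb of each chromosome left out, a comparison added after the data were seen, the ratio of chromosome 5 to chromosomes 1 to 4 was 1.28 for H3R2me2s replicate 1 and 1.31 for H4R3me2a replicate 1. In replicate 2 the ratio was 1.02 for H3R2me2s and 1.05 for H4R3me2a, so that the middle of chromosome 5 was close to that of chromosomes 1 to 4 in these lists. The input ratio fell as well, from 0.889 to 0.785, so the fall was not particular to the marks. The ends left out are also a larger part of chromosome 5 than of the longer chromosomes 1 to 4. Over all whole 1 Mb bins, with the ends included, the median bin was higher on chromosome 5 in all 4 ChIP lists. It held 78 against 48 H3R2me2s peaks in replicate 1, 110 against 87 in replicate 2, 57.5 against 34 H4R3me2a peaks in replicate 1 and 104 against 81 in replicate 2. Of the 62 whole bins of chromosome 5, 38 to 40 lay above the median bin of chromosomes 1 to 4 in the ChIP lists, and 20 did in the input. The lower quartile of bins differed in direction between platforms: it was 33.5 against 27 for H3R2me2s replicate 1, and 54.2 against 60 for H3R2me2s replicate 2.

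Both marks followed a single pattern of dense and poor bins along chromosome 5. Bins of 1 Mb held 0 to 381 H3R2me2s peaks in replicate 1, 0 to 276 in replicate 2, 0 to 300 H4R3me2a peaks in replicate 1, 0 to 262 in replicate 2 and 0 to 31 input peaks. Over the 62 bins the rank order of the marks was nearly the same within a platform, with Spearman rho of 0.988 in replicate 1 and 0.986 in replicate 2, and across platforms it was 0.977 for H3R2me2s and 0.973 for H4R3me2a. Against the input rho was 0.349 to 0.388. The median bin held 6.5 input peaks, against 57.5 to 110 peaks in the ChIP lists, and the part of these low counts in the lower rho was not tested. These are descriptions over bins of the same libraries, which share mappability, base composition and, in replicate 1, a control.

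**Figure D2:**
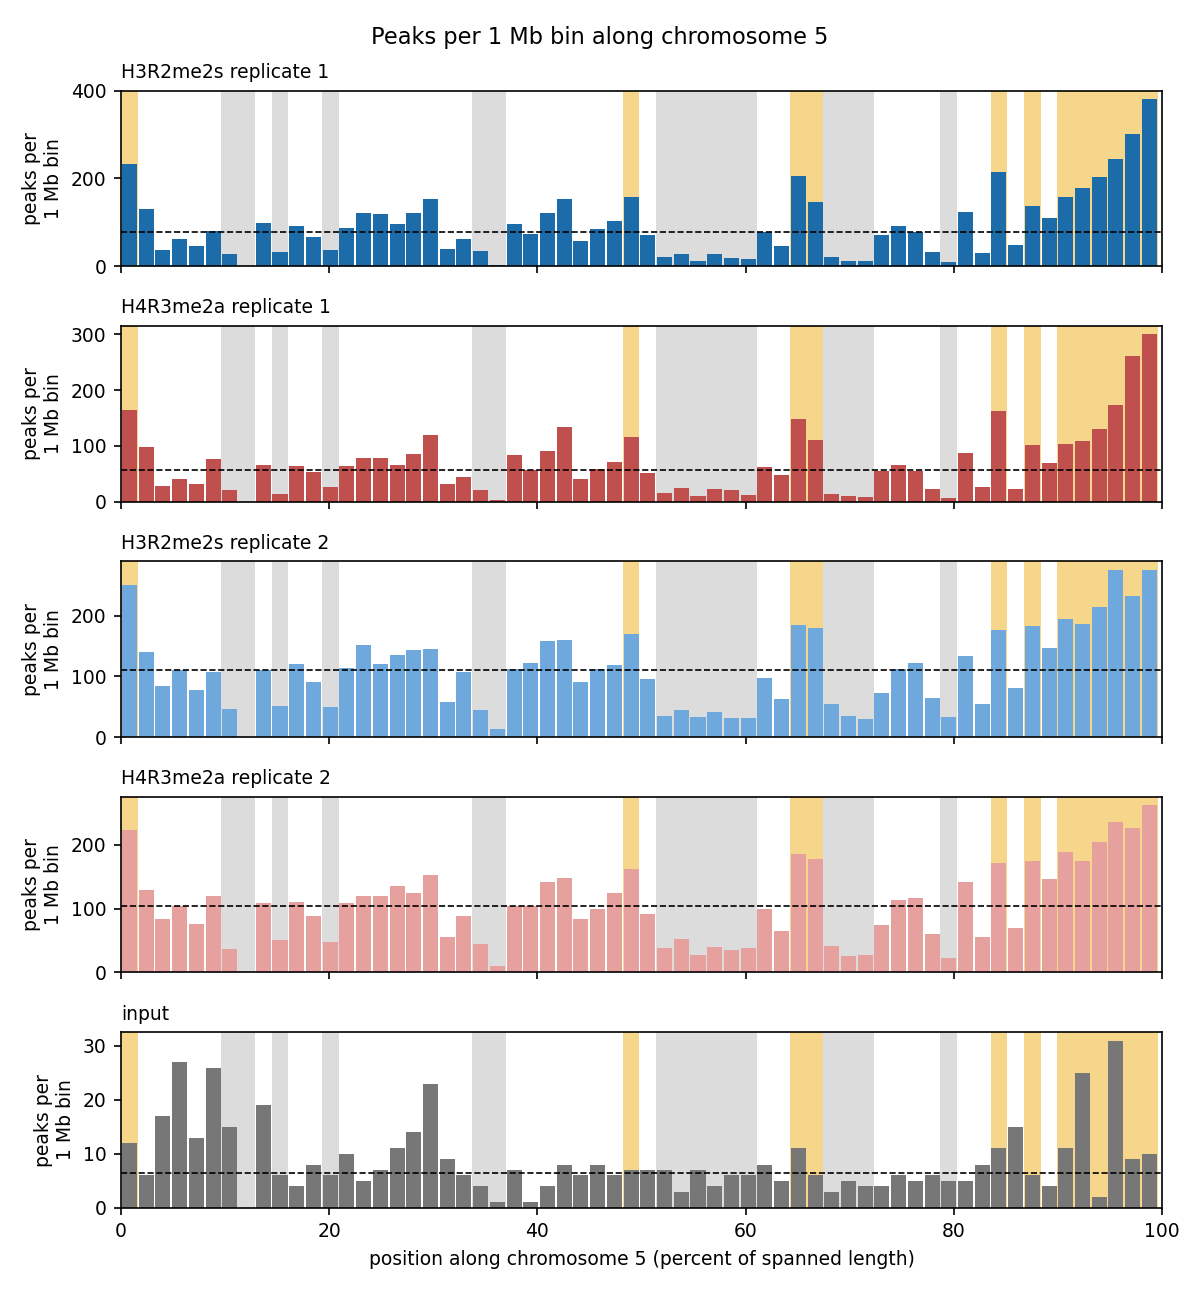
Peaks per 1 Mb bin along chromosome 5 in each list, with position in percent of the spanned length, the list's median bin as a dashed line, dense bins shaded yellow and poor bins shaded grey. The 4 ChIP lists rise together toward the last end, from 158 to 381 H3R2me2s peaks per bin in replicate 1, and fall together in the long poor stretch just past the middle.

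A bin was called dense when it held at least 1.5 times the list's median on chromosome 5 in all 4 ChIP lists, and poor when it held at most 0.5 times the median in all 4. Of the 62 whole bins, 12 (19.4%) were dense, while 7.13% of the 561 whole bins of chromosomes 1 to 4 reached the same counts, a difference that the choice of a dense chromosome favours. Chromosome 2 had the lowest share of such bins (2.60%), and chromosomes 3 and 4 had the highest (10.6% each). Poor bins numbered 16 (25.8%), and 19.8% of the bins of chromosomes 1 to 4 were that poor, with 28.7% on chromosome 4. Of the 16, 14 lay clear of a long stretch without any peak that is described further on. The dense bins held 44.0% of the H3R2me2s and 43.8% of the H4R3me2a peaks of chromosome 5 in replicate 1, and 36.6 and 36.4% in replicate 2. The input had 26.0% of its peaks in them. When the upper 50% of each list by fold enrichment was used, 2 dense and 8 poor bins were left, all of them among those above, and by p-value it was 7 and 10. The 2 dense bins were at 41 to 42 and 59 to 60 Mb. The 7 by p-value were at 0 to 1, 30 to 31, 40 to 42 and 59 to 62 Mb.

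The largest dense block was the last end, from 56 to 62 Mb. Its 6 bins held 1466 H3R2me2s peaks in replicate 1, 1379 in replicate 2, 1076 H4R3me2a peaks in replicate 1, 1289 in replicate 2 and 88 input peaks. This was 25.2 and 20.02% of the H3R2me2s peaks and 25.1 and 19.7% of the H4R3me2a peaks of the chromosome, against 16.2% of the input peaks. Relative to the median bin of each list, the block stood at 3.13 and 2.09 times for H3R2me2s and 3.12 and 2.07 times for H4R3me2a. The input stood at 2.26 times its median, below both replicate 1 lists but above both replicate 2 lists. Each of its bins held 158 to 381 and 186 to 276 H3R2me2s peaks, and 103 to 300 and 174 to 262 H4R3me2a peaks. That all of them lay above the medians follows from the definition of a dense bin. H3R2me2s peaks covered 23.3 and 16.9% of the block, and H4R3me2a peaks 18.9 and 11.2%. The input cover was 0.355%, and its bins varied from 2 to 31 peaks. The part bin beyond it, the last 237773 bp, stayed dense, with 83 and 65 H3R2me2s peaks, 67 and 71 H4R3me2a peaks and 1 input peak.

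Within this block the bin at chromosome 5:61000001-62000000 was the densest of the chromosome in all 4 ChIP lists, with 381 and 276 H3R2me2s peaks and 300 and 262 H4R3me2a peaks. The input had 10 peaks there. Next by mean rank came chromosome 5:59000001-60000000, with 245 and 275 H3R2me2s peaks and 174 and 235 H4R3me2a peaks. This bin also had the most input peaks of the chromosome, 31, and the part of the input in its rank was not tested. Chromosome 5:60000001-61000000 followed with 302 and 233 H3R2me2s peaks, 261 and 226 H4R3me2a peaks and 9 input peaks. Here the platforms differed in cover more than in number: replicate 1 peaks of H3R2me2s covered 39.0% of the bin and those of replicate 2 18.3%, and for H4R3me2a it was 36.0 and 12.8%. The bin at chromosome 5:58000001-59000000 came after that of the first end, with 202 and 215 H3R2me2s peaks and 130 and 204 H4R3me2a peaks over only 2 input peaks.

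**Figure D3:**
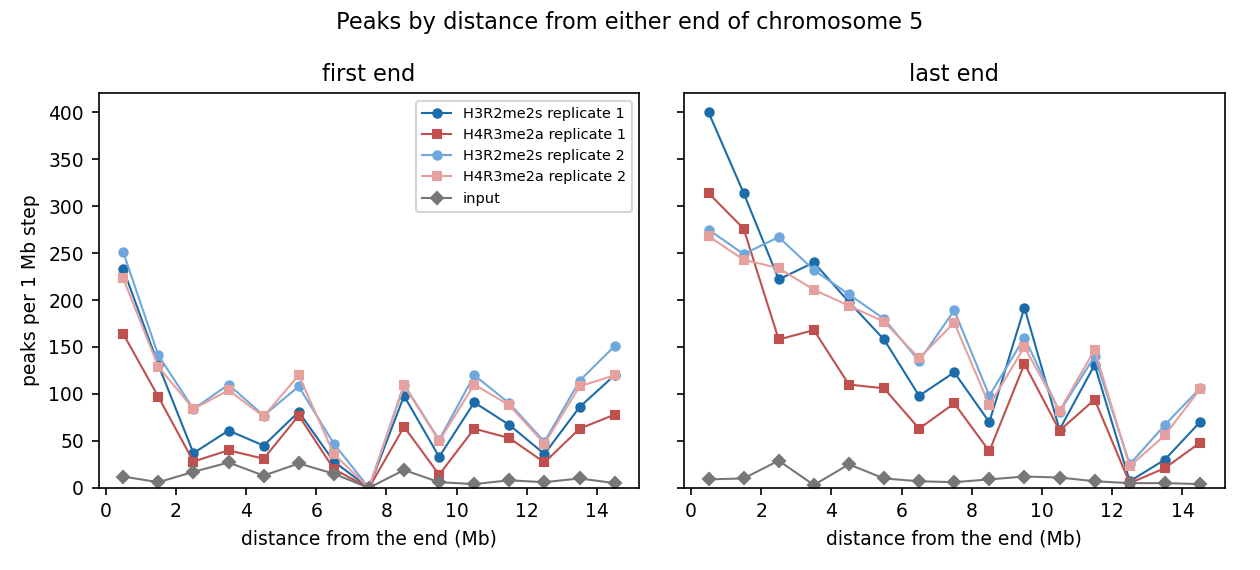
Peaks in steps of 1 Mb by distance from the first end (left) and from the last end (right, counted back from the highest peak end) of chromosome 5, with 1 line per list. At the last end counts stay at 106 or more for 6 steps in the ChIP lists, while at the first end they are at 97 or more for 2 steps and then fall.

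The first end was dense over a shorter length. Its first bin, chromosome 5:1-1000000, came next by mean rank and held 233 and 251 H3R2me2s peaks, 164 and 223 H4R3me2a peaks and 12 input peaks. The next bin had 131 and 141 H3R2me2s peaks and 97 and 129 H4R3me2a peaks, and from 2 to 5 Mb every bin lay at or below the median in each ChIP list. Over 5 Mb the first end had 1.35 and 1.39 times the H3R2me2s density of the middle and 1.30 and 1.34 times the H4R3me2a density. The last end had 3.65 and 2.57 times for H3R2me2s and 3.696 and 2.51 times for H4R3me2a. Means over replicates were 1.37 ± 0.0291 (SD, n = 2) and 3.11 ± 0.761 for H3R2me2s and 1.32 ± 0.0340 and 3.10 ± 0.838 for H4R3me2a. The value of the first end turns on the length taken: it was 2.07 and 2.01 over 2 Mb and 1.04 and 1.02 over 10 Mb.

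Over 5 Mb the input was alike at both ends, with 2.00 times the density of its middle at the first and 2.03 times at the last. Over 2 Mb it was near its middle, at 1.04 and 1.10 times, where the marks stood at 1.80 to 2.24 times at the first end. Whether the input or the marks were more raised at the first end thus turned on the length taken. Input peaks were many at 3 to 4 Mb (27) and 5 to 6 Mb (26), where the ChIP lists stood at 0.696 to 1.34 times their medians. These bins followed the one at 59 to 60 Mb in number of input peaks. Other macrochromosomes had dense ends as well. For H3R2me2s replicate 1 the last 5 Mb had 2.74, 1.15, 2.55 and 1.94 times the density of the middle on chromosomes 1 to 4, and the first 5 Mb had 1.71, 2.86, 2.56 and 4.83 times. Taken over 5 Mb and relative to the middle, the first end of chromosome 4 was thus more raised than the last end of chromosome 5. This was so in all 4 ChIP lists, for H4R3me2a at 5.62 against 3.696 in replicate 1 and 2.85 against 2.51 in replicate 2. With ends of 10 Mb the order held in replicate 1 but turned in replicate 2. There the last end of chromosome 5 had ratios of 2.15 (H3R2me2s) and 2.12 (H4R3me2a), and the first end of chromosome 4 had 1.88 and 1.94. Counted in peaks per Mb over 5 Mb, replicate 2 was likewise higher on chromosome 5, and replicate 1 on chromosome 4.

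Inside chromosome 5, a further 4 dense blocks stood apart from the ends. At 30 to 31 Mb the bin held 157 and 170 H3R2me2s peaks, 115 and 162 H4R3me2a peaks and 7 input peaks. In its densest 100 kb by mean rank, chromosome 5:30600001-30700000, there were 37 and 25 H3R2me2s peaks and 35 and 28 H4R3me2a peaks with no input peak. The median 100 kb bin of this block held 15.5 H3R2me2s and 9 H4R3me2a peaks in replicate 1, so the peaks were unevenly spread within it. In replicate 2 the medians were 19 and 16.5, nearer to the counts of that bin, and another bin held the most H3R2me2s peaks (27).

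The block at 40 to 42 Mb was the second in length and held 351 and 364 H3R2me2s peaks, 259 and 363 H4R3me2a peaks and 17 input peaks. Its densest 100 kb by mean rank were chromosome 5:40300001-40400000, where the H3R2me2s cover was 56.6% in replicate 1 but 23.3% in replicate 2. The H4R3me2a cover there was 46.3 and 15.1%, and the input had no peak. Poor bins followed directly from 42 Mb. The bin after the block held 22 and 54 H3R2me2s peaks, against 145 and 180 in the last bin of the block.

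Single bins made up the blocks at 52 to 53 Mb and 54 to 55 Mb. The former held 215 and 177 H3R2me2s peaks, 162 and 171 H4R3me2a peaks and 11 input peaks, between bins with 29 and 55 H3R2me2s peaks before it and 48 and 81 after it. The latter held 137 and 183 H3R2me2s peaks, 101 and 174 H4R3me2a peaks and 6 input peaks. For H3R2me2s the former block thus had more peaks in replicate 1 and the latter more in replicate 2.

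The longest poor stretch ran from 32 to 38 Mb. Its 6 bins held 121 H3R2me2s peaks in replicate 1, 215 in replicate 2, 104 H4R3me2a peaks in replicate 1, 232 in replicate 2 and 33 input peaks. That was 2.08 and 3.12% of the H3R2me2s and 2.43 and 3.54% of the H4R3me2a peaks of the chromosome on 6 of its 62 bins, while the input kept 6.09% of its peaks there. Each bin held 12 to 27 and 31 to 44 H3R2me2s peaks, and 10 to 24 and 28 to 52 H4R3me2a peaks. The input bins held 3 to 7 peaks each, so the input stood at 0.846 times its median in this stretch and the marks at 0.259 to 0.372 times theirs. Of the 60 bins of 100 kb here only 1 had no ChIP peak, so the stretch was thin rather than empty.

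A poor stretch of 3 bins lay at 42 to 45 Mb, with 44 and 118 H3R2me2s peaks, 32 and 93 H4R3me2a peaks and 12 input peaks. It held 2 of the 5 poorest bins, chromosome 5:43000001-44000000 with 11 and 35 H3R2me2s peaks and 10 and 25 H4R3me2a peaks, and chromosome 5:44000001-45000000 with 11 and 29 and 9 and 27. At 49 to 50 Mb a single poor bin held 9 and 33 H3R2me2s peaks, 6 and 23 H4R3me2a peaks and 5 input peaks. The platforms differed in level here, with H3R2me2s at 0.115 times the list's median in replicate 1 and 0.300 times in replicate 2.

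The stretch at 21 to 23 Mb was poor in the marks and in the input alike, with 38 and 58 H3R2me2s peaks, 22 and 54 H4R3me2a peaks and 5 input peaks. Its second bin, chromosome 5:22000001-23000000, had 3 and 14 H3R2me2s peaks, 2 and 10 H4R3me2a peaks and 1 input peak. The longest stretch of the chromosome without an input peak, 1525 kb at chromosome 5:21228203-22752748, overlaps it. Single poor bins at 9 to 10 Mb and 12 to 13 Mb were less marked, with 33 and 51 H3R2me2s and 14 and 50 H4R3me2a peaks in the former and 36 and 49 and 27 and 47 in the latter. Both had 6 input peaks, close to the input median of 6.5.

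The poorest bin of all, chromosome 5:7000001-8000000, had no peak in any of the 5 lists. It is the inner part of a stretch of 1500.2 kb, chromosome 5:6508920-8009081, with no peak of any list. Its edges were nearly the same in all lists: the last peak before it ended between 6508693 and 6508919, and the first peak after it began between 8009082 and 8009646. What lies there in the assembly was not analysed here, so its lack of peaks is not a statement on the marks. The rest of the poor stretch at 6 to 8 Mb, the bin before it, held 28 and 47 H3R2me2s peaks, 20 and 36 H4R3me2a peaks and 15 input peaks, all in the 0.509 Mb outside this stretch. Per Mb of that length the marks stood at 0.680 to 0.840 times their medians, so the bin was called poor only through the empty stretch, and the input stood at 4.53 times its median. The next longest stretches without a ChIP peak were far shorter, 199.5 kb at chromosome 5:45051034-45250520, with 1 input peak inside, and 192.5 kb at chromosome 5:21975442-22167899. The first peak after the long stretch was the widest peak of the chromosome in H4R3me2a replicate 2 (3598 bp) and in the input (2130 bp), and the widest region found in all 4 ChIP lists, 3519 bp at chromosome 5:8009646-8013164, lay on it.

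**Figure D4:**
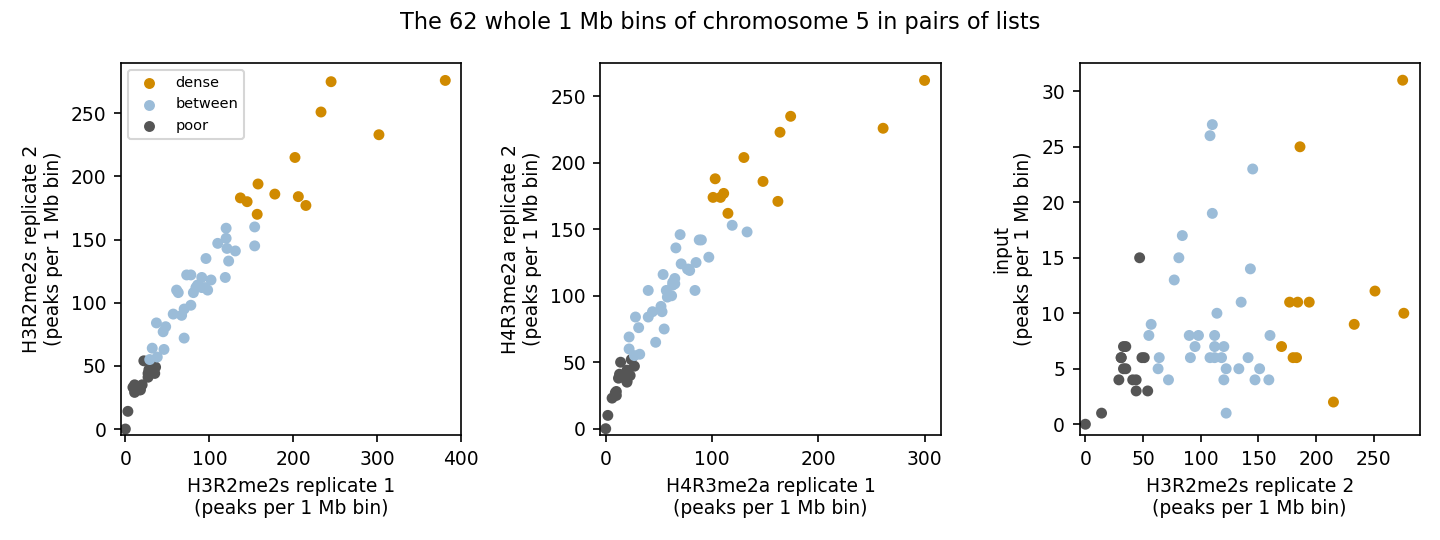
The 62 whole 1 Mb bins of chromosome 5 by peaks per bin in the 2 replicates of H3R2me2s (left), the 2 replicates of H4R3me2a (middle) and H3R2me2s replicate 2 against the input (right), with colour for the class of bin. The replicates line up from 0 to 381 and 0 to 300 peaks in replicate 1, while the 4 input bins with 25 to 31 peaks span 108 to 275 H3R2me2s peaks.

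Dense and poor bins differed more in replicate 1 than in replicate 2. A dense bin held 11.04 times as many H3R2me2s peaks and 11.1 times as many H4R3me2a peaks as a poor bin in replicate 1, and 5.89 and 5.94 times as many in replicate 2. For the input the ratio was 2.29. Without the 2 poor bins that touch the stretch without any peak, the ratios were 10.6 and 10.7 in replicate 1, 5.62 and 5.57 in replicate 2 and 2.46 for the input. The classes were made from the ChIP counts, so these ratios describe the contrast within a list and are no test.

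Peaks also differed between the classes in fold enrichment and width, which did not define the classes but may not be independent of peak density. Deposited fold enrichment, the authors' own value for each peak, had a median of 9.81 in dense and 8.71 in poor bins for H3R2me2s replicate 1, and of 14.0 and 12.4 for H4R3me2a replicate 1. In replicate 2 the order was the other way, with 2.64 in dense and 3.38 in poor bins for H3R2me2s and 2.80 and 3.34 for H4R3me2a. Median widths were larger in dense bins for H3R2me2s, at 718 against 621 bp in replicate 1 and 629.5 against 570 bp in replicate 2. For H4R3me2a they were 823 against 744 bp in replicate 1 and 425 against 435 bp in replicate 2. Fold enrichment is relative to a local background that was taken from a control in replicate 1 and from the library itself in replicate 2, and its part in this difference was not tested.

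**Figure D5:**
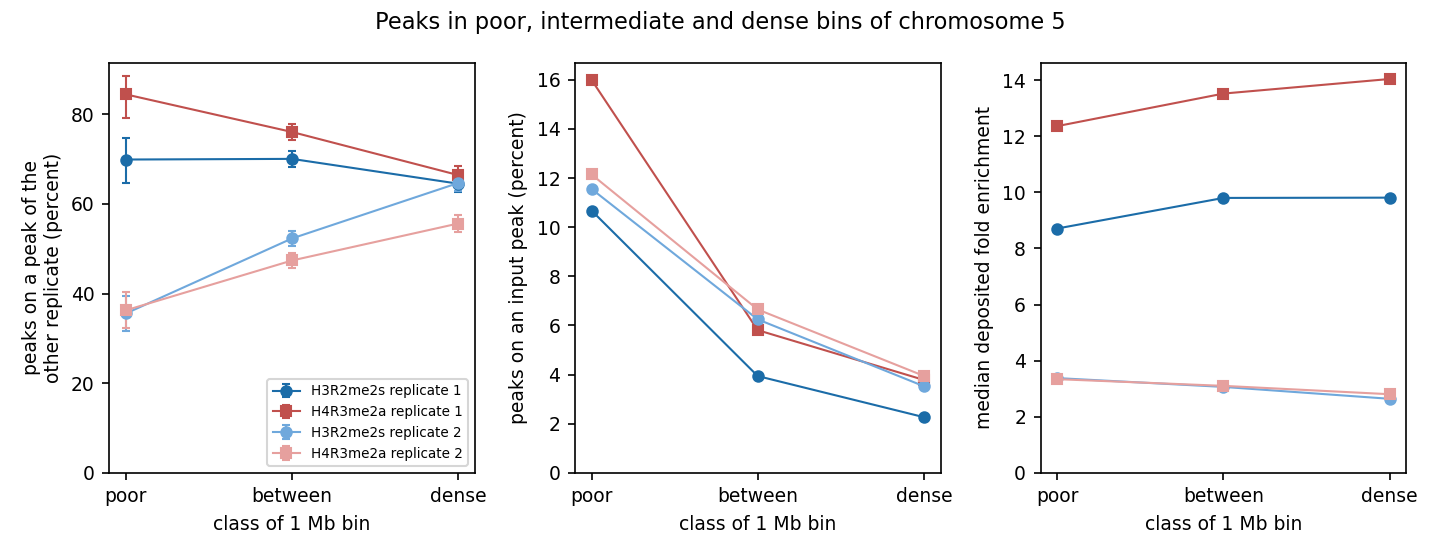
Percent of peaks on a peak of the other replicate (left, with 95% Wilson intervals), percent on an input peak (middle) and median deposited fold enrichment (right) in poor, intermediate and dense bins, with 1 line per ChIP list. From poor to dense bins the share on the other replicate rises in replicate 2 and falls in H4R3me2a replicate 1, and the share on input peaks falls in all 4 lists.

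Of the 5819 H3R2me2s peaks of replicate 1 on chromosome 5, 3924 or 67.4% (95% Wilson interval 66.2 to 68.6) overlapped a replicate 2 peak by at least 1 bp, against 65.8% on all other chromosomes. For H4R3me2a it was 3091 of 4286 or 72.1% (70.8 to 73.4), against 68.3%. Seen from replicate 2 the shares were 55.6% (54.5 to 56.8) against 56.4% for H3R2me2s and 49.7% (48.4 to 50.9) against 51.3% for H4R3me2a. These intervals hold counting error alone, and neighbouring peaks are not independent of each other. Which way chromosome 5 differed depended on the chromosomes it was set against. On chromosomes 1 to 4 alone the replicate 1 shares were higher than on chromosome 5, at 70.3% for H3R2me2s and 74.9% for H4R3me2a. The replicate 2 shares were lower there, at 45.1 and 40%. Replicate 1 peaks were 1.43 (H3R2me2s) and 1.47 (H4R3me2a) times as dense on chromosome 5 as on chromosomes 1 to 4. Replicate 2 peaks were 1.12 and 1.14 times as dense. The choice of the chromosome by density thus bears on these shares, and its part was not tested.

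The share differed between the classes of bin. The classes were defined by the peak counts of these same lists, so dense bins offer more peaks to overlap. No overlap by placement alone was computed, and the shares are a description. In dense bins 64.7% (62.8 to 66.5) of the H3R2me2s and 55.6% (53.6 to 57.6) of the H4R3me2a peaks of replicate 2 were on a replicate 1 peak, and in poor bins 35.6% (31.7 to 39.6) and 36.3% (32.3 to 40.4). From replicate 1 the order was the reverse for H4R3me2a, with 66.4% (64.3 to 68.5) in dense and 84.4% (79.1 to 88.6) in poor bins. For H3R2me2s replicate 1 the shares were 64.5% (62.6 to 66.3) and 69.9% (64.6 to 74.7). Poor bins had fewer replicate 1 than replicate 2 peaks, 309 against 571 for H3R2me2s and 225 against 535 for H4R3me2a. Their part in the shares was not tested.

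The marks mostly lay at the same sites within a platform. Of the H4R3me2a peaks on chromosome 5, 88.9% (87.9 to 89.8) overlapped an H3R2me2s peak in replicate 1, against 89.4% on all other chromosomes, and 84.6% (83.7 to 85.4) did in replicate 2, against 84.3%. Of the H3R2me2s peaks, 67.4% (66.2 to 68.6) overlapped an H4R3me2a peak in replicate 1, against 69.5%, and 75.3% (74.3 to 76.3) in replicate 2, against 73.7%. On chromosomes 1 to 4 alone the shares of H4R3me2a peaks were 85.9 and 84.9%, and those of H3R2me2s peaks 63.2 and 74%. In replicate 1 chromosome 5 lay between these backgrounds for both marks, and in replicate 2 it was close to both. In replicate 1 the share of H4R3me2a peaks on H3R2me2s peaks was 92.0% (90.7 to 93.2) in dense and 76.9% (71.0 to 81.9) in poor bins. In replicate 2 it was 84.0% (82.5 to 85.4) and 83.0% (79.6 to 85.9). Here too the classes rest on the counts of the lists compared. The replicate 1 lists share a control library, whose part in their overlap was not tested.

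Regions found in both replicates numbered 4158 for H3R2me2s and 3411 for H4R3me2a on chromosome 5, and covered 2.61 and 1.90 Mb. Of these H4R3me2a regions 78.9% (77.5 to 80.2) overlapped an H3R2me2s region, against 78.2% on all other chromosomes and 77.3% on chromosomes 1 to 4. From the H3R2me2s side it was 63.6% (62.2 to 65.1), against 62.8 and 60.6%. Bases covered in all 4 ChIP lists formed 2775 regions, 1.41 Mb in all and 451 bp wide in the median. They were 2.27% of the spanned chromosome, against 1.52% of chromosomes 1 to 4, and 42.0% of them lay in dense and 5.48% in poor bins. Such a region was present in 468 (75.2%) of the 622 bins of 100 kb, and 23 (3.698%) were without any ChIP peak.

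No 1 Mb bin set the marks apart in both replicates. The share of a list's chromosome 5 peaks that fell in a bin was compared between the marks, and a bin was to count where the lower share was at most 0.8 times the higher one, in the same direction in both replicates. In replicate 1 the ratio of the H4R3me2a to the H3R2me2s share ran from 0.576 to 1.51 over 61 bins with a median of 0.975, and past this limit were 4 bins with more H4R3me2a and 3 with more H3R2me2s. In replicate 2 it ran from 0.733 to 1.29 with a median of 1.01, with 1 and 4 such bins. None of these bins was past the limit in both replicates, and the ratios of the replicates had a Spearman rho of 0.275 over the 61 bins.

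Few regions of one mark lacked the other. No H4R3me2a peak of either replicate touched 309 of the 4158 H3R2me2s regions, or 7.43% (6.67 to 8.27), against 7.34% on chromosomes 1 to 4. No H3R2me2s peak touched 62 of the 3411 H4R3me2a regions, or 1.82% (1.42 to 2.32), against 2.98% (2.77 to 3.22) on chromosomes 1 to 4. In dense and poor bins the shares were 7.48% (6.35 to 8.79) and 5.45% (3.15 to 9.29) for H3R2me2s. For H4R3me2a they were 1.87% (1.28 to 2.72) and 1.93% (0.754 to 4.86). The poor bins gave only 12 of 220 and 4 of 207 regions, and neighbouring regions are not independent. The overlap of these intervals therefore does not decide whether the classes differ. Here too the classes rest on the counts of these lists. Regions without the other mark were narrower, with medians of 393 against 563 bp for H3R2me2s and 289 against 489 bp for H4R3me2a. The part of width in this was not tested.

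Input peaks lay under 3.52% (3.08 to 4.03) of the H3R2me2s replicate 1 peaks of chromosome 5, against 3.73% on all other chromosomes, and under 5.65% (5.13 to 6.22) of replicate 2 peaks, against 6.16%. For H4R3me2a they lay under 5.39% (4.75 to 6.11) in replicate 1, against 5.14%, and 6.06% (5.51 to 6.66) in replicate 2, against 6.67%. On chromosomes 1 to 4 alone more ChIP peaks sat on input peaks than on chromosome 5, at 4.89 and 7.21% (H3R2me2s) and 6.63 and 7.82% (H4R3me2a). Of the regions found in both replicates, 5.05% for H3R2me2s were on input peaks, against 5.46% on all other chromosomes and 7% on chromosomes 1 to 4. For H4R3me2a it was 7.36%, against 7.11 and 8.72%. Of the 2775 regions in all 4 lists 191 or 6.88% were, against 7.09 and 8.88%. Chromosome 5 was thus below the pooled chromosomes 1 to 4 in each of these shares. The choice of a chromosome dense in ChIP peaks favours this difference, since its input density was 0.889 times that of chromosomes 1 to 4. Within chromosome 5 the share was lower in dense bins, at 2.27 and 3.53% (H3R2me2s) and 3.78 and 3.95% (H4R3me2a), than in poor bins, at 10.7 and 11.6% and 16.0 and 12.1%. The last part bin, which belongs to neither class, had 1.20 to 1.54% of its ChIP peaks on input peaks. These shares are taken over the ChIP peaks whose number defined the classes. With peaks on input peaks left out, 13 dense bins were called, the same 12 and 26 to 27 Mb, and 14 poor bins, all among the 16.

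Of the 542 input peaks themselves, 91.3% (88.7 to 93.4) were overlapped by H3R2me2s replicate 2 and 90.2% (87.4 to 92.4) by H4R3me2a replicate 2, against 89.2 and 87.5% elsewhere. Replicate 1 peaks overlapped 50.4% (46.2 to 54.6) and 57.2% (53.0 to 61.3), against 49.3 and 52%. On chromosomes 1 to 4 alone the shares were 87.7 and 85.8% for replicate 2 and 42.8 and 41.7% for replicate 1, below those of chromosome 5. The choice of a chromosome dense in ChIP peaks favours this difference as well. The largest input cluster, with gaps of up to 3 kb, was at chromosome 5:59298997-59309943 and held 11 input peaks, and each ChIP list covered 59.7 to 64.8% of it.

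The regions of chromosome 5 found in all 4 ChIP lists were ranked by mean rank of fold enrichment within each list. The best was chromosome 5:3202744-3203555, with H3R2me2s folds of 32.2 in replicate 1 and 7.09 in replicate 2 and H4R3me2a folds of 48.5 and 7.41. It lies in the bin that is second by input peaks, and an input peak with a fold of 5.45 lay on it. Chromosome 5:54368765-54370035 followed with folds of 20.9 and 7.12 (H3R2me2s) and 48.4 and 7.86 (H4R3me2a). The others of the first 5 were chromosome 5:59465308-59465884, chromosome 5:9164529-9165251 and chromosome 5:43407275-43408534, and all 5 carried an input peak, with input folds of 3.23 to 8.31. Their ranks are therefore no measure of the marks alone. Those at 54 and 59 Mb lay in dense bins, and those at 9 and 43 Mb in poor bins.

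Off input peaks the best region was chromosome 5:49087629-49088898, in the poor bin at 49 to 50 Mb. Its folds were 18.8 and 8.64 for H3R2me2s and 24.1 and 10.5 for H4R3me2a, in a bin with 9 and 33 H3R2me2s peaks in all. Next came chromosome 5:31238752-31239908, beyond the dense block at 30 to 31 Mb, with 24.1 and 5.63 for H3R2me2s and 39.3 and 6.04 for H4R3me2a. Chromosome 5:1762910-1763731, chromosome 5:13603027-13603480 and chromosome 5:36861058-36861713 completed the 5, the last in the longest poor stretch where the H3R2me2s folds were 17.98 and 9.06 and the H4R3me2a folds 22.1 and 8.43. None of these 5 regions lay in a dense bin. Fold enrichment over the 2775 regions was only weakly and inversely related between the replicates, with Spearman rho of -0.204 for H3R2me2s and -0.142 for H4R3me2a. Within a platform the marks went together, with 0.418 in replicate 1 and 0.842 in replicate 2. A mean rank thus hides a lack of agreement between platforms.

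Regions in all 4 lists formed their longest chains, with gaps of up to 3 kb, at 18 Mb and near the first end. Chromosome 5:18183453-18200774 spanned 17.3 kb with 7 regions, and H3R2me2s peaks covered 39.5 and 40.3% of it, H4R3me2a peaks 49.4 and 39.2% and 1 input peak 1.26%. Chromosome 5:18237819-18249544 spanned 11.7 kb with 6 regions and no input peak. Chromosome 5:384480-395949 spanned 11.5 kb with 8 regions and no input peak, and its cover was 67.2 and 46.5% for H3R2me2s and 78.5 and 44.2% for H4R3me2a. The chains at 18 Mb lie in a bin that was not called dense, with 154 and 145 H3R2me2s peaks and 119 and 153 H4R3me2a peaks, under the limits of 165 and 156 peaks in replicate 2, and with 23 input peaks.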

How the data were processed

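The deposited peak lists were made with MACS 1.4.2 for replicate 1, against 1 shared control library of 23.3 M tags at a p-value limit of 1e-05, and with MACS 2.0.10.20120913 for replicate 2 and the input, with no control at a q-value limit of 0.05, per the file headers. Per the file headers the effective genome size was 1e+09 and 1 tag was kept per position. Peaks were called per library. The aligner was not given in the sources used here, and the only hint of a build is a folder name with gal3 in the replicate 1 headers, so coordinates stand as deposited, and gene names and sequences were not used here. The authors deposited for each peak a fold enrichment (a ratio) and, in replicate 1, a tag count, a score that is a multiple of log10 of p and a false discovery rate in percent. For replicate 2 and the input they deposited a pileup signal and −log10 p and q values.

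Peaks were placed in 1 Mb bins by their midpoint, with Python 3.11.15, pandas 2.3.3, numpy 2.4.6 and SciPy 1.17.1. Overlap meant at least 1 bp, and intervals are 95% Wilson intervals. Regions named are each dense block and poor stretch, the 5 densest and 5 poorest bins, the 5 best regions in all 4 ChIP lists and the 5 best off input peaks, the 3 longest chains and peak-free stretches, and the 3 densest input bins. The members and lists were chosen with earlier results of these data known. Counting was tested on simulated peaks. The replicate number marks the platform, so a fit within replicate number was an alternative. Other alternatives were stricter peaks, another overlap, bins, limits and ends, peaks off the input, covered bases, and each replicate left out.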

Additional observations from a re-analysis of the deposited data

How the results depend on the processing

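Of 123 values under alternatives, 84 moved by less than the spread or interval of the value as reported (counts of bins by at most 1.5 times). The other 39 moved beyond it and 0 changed direction. A change of direction could be called only for density ratios, not for shares or counts of bins. For means over replicates the spread is the SD of 2 lists that differ in platform, caller, control and depth. Where this SD is wide, as for the density ratios and the last end, a value within it is not shown to be stable. Some of the 84 were fixed in advance. Leaving out either replicate always moves a mean of 2 by less than their SD, and the replicate block leaves the difference between the marks as it is. The alternatives by p-value, without chromosome ends, with the whole input list and without the longest peak-free stretch of each chromosome were chosen after seeing the data. For regions in both replicates, the density ratio to chromosomes 1 to 4 was 1.398 for H3R2me2s and 1.43 for H4R3me2a. It was 1.23 and 1.29 in the upper 50% by fold, 1.48 and 1.4998 in the upper 50% by p-value and 1.26 and 1.32 without chromosome ends. Leaving out a replicate gave 1.12 to 1.43 and 1.14 to 1.47, but these are ratios of single peak lists and not of shared regions. The first end over the middle (1.37 and 1.32) was 1.32 and 1.37 in the upper 50% by fold, 1.52 and 1.46 by p-value, 1.33 and 1.29 off input peaks, 1.57 and 1.55 in covered bases, 2.07 and 2.01 with ends of 2 Mb and 1.04 and 1.02 with ends of 10 Mb. Replicate 1 peaks on replicate 2 peaks (67.4 and 72.1%) fell to 37.4 and 43.5% in the upper 50% by fold, with both lists halved. A halved target list leaves fewer peaks to overlap, so this fall is no measure of how well the stronger peaks recur. The shares were 64.5 and 69.7% with an overlap of 50% of the shorter peak and 65.6 and 68.5% with p of at most 1e-05. Peaks on input peaks (4.58 and 5.72%) were 6.59 and 7.70% for the upper 50% against the whole input list, and 3.88% for H4R3me2a with both lists halved by fold. H4R3me2a peaks on H3R2me2s peaks (86.7%) were 74.7% in the upper 50% by fold, again with both lists halved. For regions in both replicates (78.9%) the share was 53.4% by fold, with all lists halved. When a replicate was left out it was 84.6 to 88.9%, again over the peaks of single lists and not over shared regions. Dense and poor bins (12 and 16) numbered 2 and 8 in the upper 50% by fold, 7 and 10 by p-value, 4 and 6 with limits of 2 and 0.33 times the median, and 12 to 17 and 16 to 19 without a replicate. With the replicate block, the difference between the marks of 0.0270 had an exact permutation p of 0.5, the smallest that pairing allows. The cause of these changes was not tested.

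Depth, platform, caller and control changed together with replicate number, so their parts cannot be told apart. With 2 libraries per mark the smallest p of a permutation test over libraries is 0.333. Counts of peaks depend on where broad signal was split, and neighbouring peaks are not independent. The stretch without any peak and the spanned length rest on the peak lists, since no assembly of their build was used here.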

Other observations

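Among the chains of peaks on chromosome 5, the longest in each replicate 1 list lay at the last end. Chains on other chromosomes were not sought. With gaps of up to 1 kb, the longest H3R2me2s chain of replicate 1 was chromosome 5:60609111-60650613, with 19 peaks over 41.5 kb. Its H3R2me2s cover was 88.8% in replicate 1 but 20.7% in replicate 2, its H4R3me2a cover was 83.0 and 8.98%, and the input had no peak. The longest H4R3me2a chain of replicate 1, chromosome 5:60526037-60587454, had 18 peaks over 61.4 kb, with H4R3me2a cover of 89.4 and 9.86% and H3R2me2s cover of 86.5 and 18.1%. Over the whole chromosome, 14.7% of the H3R2me2s and 10.4% of the H4R3me2a peaks of replicate 1 were in chains of at least 5 peaks. In replicate 2 it was 0 and 0.382%. The chains named were picked as the longest, so their length and place are a description.

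Summits of the marks lay close together where peaks touched. On chromosome 5 the median distance of an H4R3me2a summit to the H3R2me2s summit was 44 bp in replicate 1 and 89 bp in replicate 2, with 70.1 and 54.6% within 100 bp. Between replicates of the same mark it was larger, at 154 bp for H3R2me2s and 112 bp for H4R3me2a. The distances between replicates cross platform, caller and control, while those between marks do not. The part of this in the difference was not tested.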
